A study of Mus musculus with 6 samples.

Results

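The respiratory chain subunits are the proteins of complexes I to V of the mitochondrial inner membrane, and their genes lie in 2 genomes. Members were the protein-coding rows of the deposited table whose symbols begin with the prefixes of these genes (Nduf followed by a, b, c, s or v and a digit, Sdha to Sdhd, Uqcr, Cox4 to Cox8, Atp5 and mt-). This rule took 97 of 35275 rows: 84 nuclear genes (35 of complex I, 4 of II, 8 of III, 20 of IV and 17 of V) and the 13 protein-coding genes of the mitochondrial chromosome (7 of complex I, 1 of III, 3 of IV and 2 of V). Ndufa4 and Ndufa4l2 were placed with complex IV, where the protein of Ndufa4 is now assigned. The prefixes miss Cyc1 of complex III and Ndufab1 of complex I, and they take in Atp5s and Atp5sl, which are not core subunits of ATP synthase, and Cox7a2l, which joins complexes III and IV into supercomplexes.

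Complex I passes electrons from NADH, and complex II from succinate, to ubiquinone. Complexes III and IV carry them on through cytochrome c to oxygen, and ATP synthase, complex V, uses the proton gradient that complexes I, III and IV build up. Mitochondrial DNA encodes the hydrophobic cores of complexes I, III, IV and V and nothing of complex II, so every complex but II needs both genomes. Damaged mitochondria can be removed whole by autophagy, and the use of this chain differs between the activation states of macrophages.

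RNA was sequenced from tumour-associated macrophages of female FVB/NJ mice, which were 65 days old when their mammary tumours were taken. FACS selected the CD11b+, F4/80+, Ly6G- and Ly6C- population. The 3 mice labelled Atg5 KO were MMTV-PyMT, Atg5flox/flox and LysMcre. The 3 mice labelled Atg5 WT were MMTV-PyMT and Atg5flox/flox without Cre, so both groups carried the floxed alleles and the PyMT oncogene, which the MMTV promoter drives in the mammary epithelium. LysMcre is a Cre recombinase placed in the Lyz2 gene and acts in macrophages, monocytes and neutrophils. The comparison asks how gene expression in these macrophages differs with the Cre that targets Atg5, a gene needed to form autophagosomes.

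The 6 libraries held between 18770262 and 21173301 reads. Over the whole gene, Atg5 went against its label, with 14.0, 16.6 and 17.4 FPKM in libraries labelled KO, against 5.15, 5.11 and 5.28 in those labelled WT, so every direction below is between labelled groups. FPKM, the unit throughout, is the read count divided by the length of the gene model and by the library's counted reads. Lyz2 is the gene in which LysMcre is placed. It had 8.43, 11.8 and 16.1 FPKM in libraries labelled KO and 4707, 2060 and 6571 FPKM in those labelled WT. Lyz2 was the 1 gene of 12332 called at an adjusted p under 0.05 (limma-trend, Benjamini-Hochberg), which is 0.00811% of those tested. Lyz2 was thus low in the libraries whose labels carry Cre, while whole-gene Atg5 was not. The source of the Atg5 reads was not tested. Macrophage markers were high in all 6 libraries, with a mean log2(FPKM + 1) between 6.97 and 8.87, but epithelial markers were present as well, and WT replicate 2 stood apart with the highest epithelial mean (7.12) and the lowest macrophage mean. T cell markers were near 0, at a mean log2(FPKM + 1) between 0.15 and 0.76.

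No respiratory chain gene passed the test in either direction: 0 of 92 members that passed the filter of a mean FPKM of 1 were called, against 0.00811% of all genes, and the smallest adjusted p was 0.492 (limma-trend). At an unadjusted p under 0.05 there were 3 (Sdhb and Atp5e higher, mt-Nd4l lower, labelled KO against WT), beside 10.0% of all genes tested. The median log2 difference of the members, labelled KO minus WT, was -0.01, against -0.09 over all 12332 genes. By sign, 44 members were higher and 48 lower in the libraries labelled KO, and 37.2% of all genes were higher. The 95% interval of the difference lay within a log2 of 1 either way for 88 of the 92 (all genes 69.0%) and within 0.5 for 62 (all genes 29.6%), and the median standard error was 0.13, against 0.19 for all genes. The narrow intervals were those of the nuclear members, with a median standard error of 0.12 and 58 of 80 within 0.5. For the mitochondrial members the median standard error was 0.20, close to that of all genes, and 4 of 12 intervals lay within 0.5. Members had a median of 78.7 FPKM, against 9.15 FPKM over all genes tested, so they rest on more reads per base than most genes do.

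**Figure D1:**
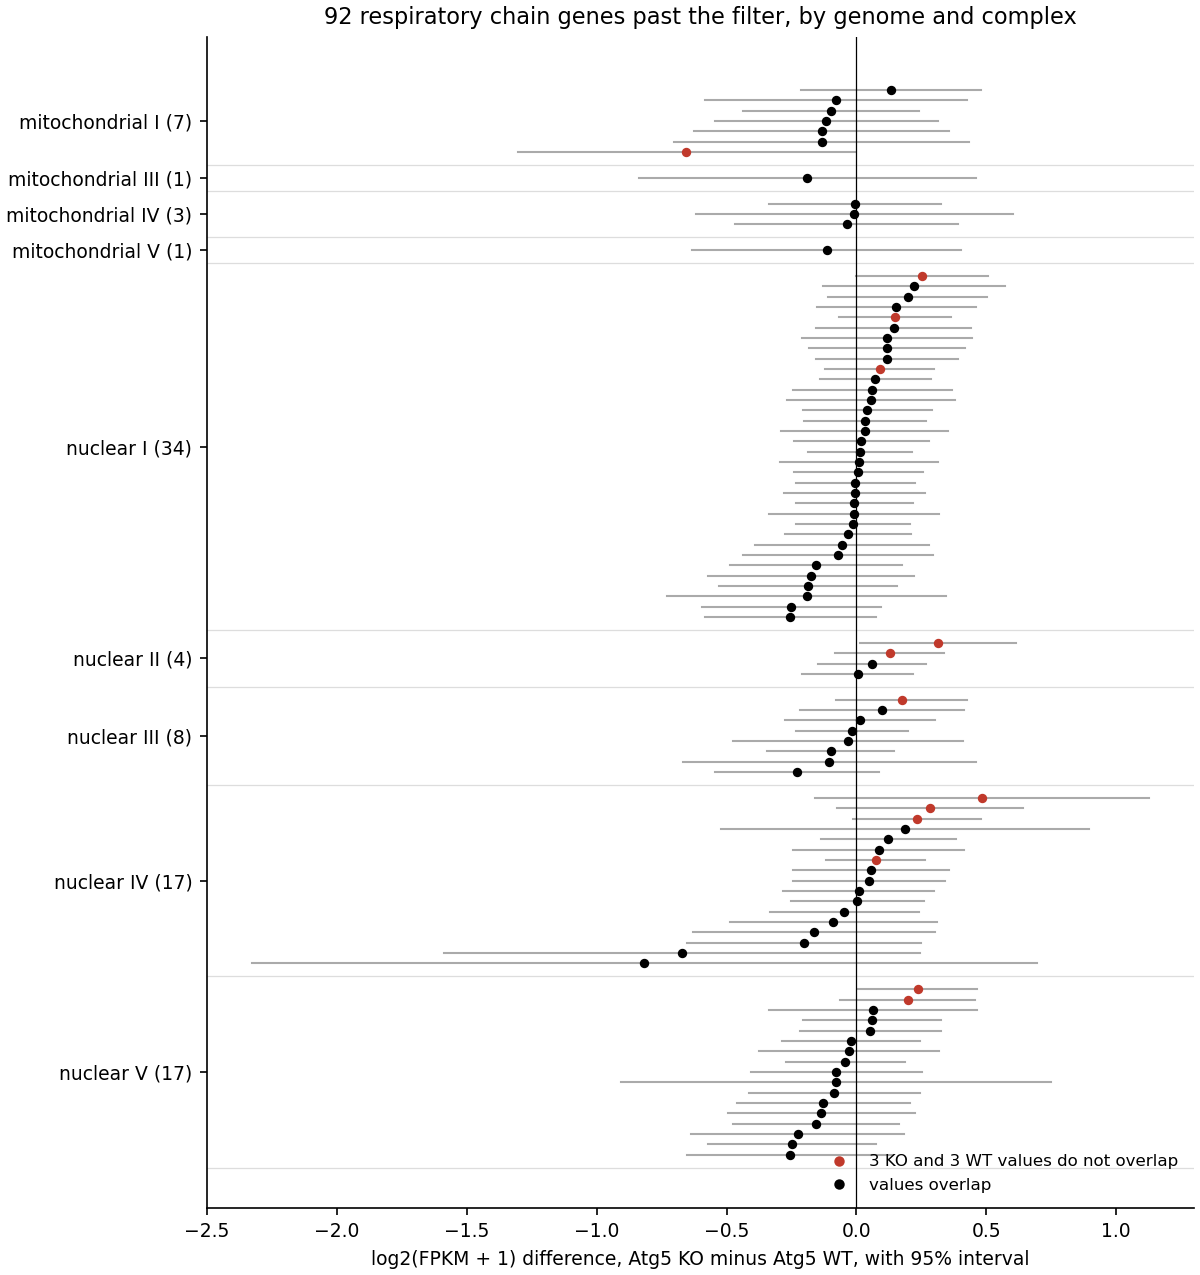
Difference in log2(FPKM + 1), labelled Atg5 KO minus Atg5 WT, for the 92 members past the filter, by genome and complex and sorted by size within each. Points are estimates and lines their 95% intervals from limma, and red marks the 13 members whose 3 labelled KO and 3 labelled WT values do not overlap. Most points lie within 0.5 of 0, and the widest intervals belong to Cox8b, Cox7a1 and Atp5s.

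The 3 labelled KO values and the 3 labelled WT values did not overlap for 13 of the 92 members, where 18.6% of all genes tested were so separated. Of these, 12 were higher in the libraries labelled KO (all genes 9.2%), all of them nuclear: Ndufa1, Ndufa2 and Ndufc1 of complex I, Sdhb and Sdhd of complex II, Uqcrq of complex III, Cox5a, Cox6a2, Cox6c and Cox7a2l of the complex IV group, and Atp5e and Atp5l of complex V. The single separated member with lower values was mt-Nd4l (all genes 9.41%). As a share of the members, the count in both directions is below the background and the count of higher members is above it. These counts are of the deposited values. The split by sign moved with the scaling, from 44 higher and 48 lower as deposited to 74 and 18 with median-ratio scaling.

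The 2 genomes are described first by the share of the library that each took. The genes of the mitochondrial chromosome held 2.14%, 1.94% and 1.91% of counted reads in the libraries labelled KO, against 2.15%, 2.59% and 1.67% in those labelled WT. The 84 nuclear members held 0.889%, 0.817% and 0.854% in libraries labelled KO and 0.872%, 0.956% and 0.790% in those labelled WT. In both shares the libraries labelled WT hold the highest value, in replicate 2, and the lowest, in replicate 3, and the libraries labelled KO fall between them. The ratio of summed mitochondrial to summed nuclear FPKM was 1.88, 1.88 and 1.73 in libraries labelled KO and 1.97, 2.17 and 1.70 in those labelled WT, so the groups overlapped here too. The genes from mt-Co2 to mt-Nd4l on the mitochondrial chromosome add little to this share and ratio, and their levels are uncertain, as described below. Both values may therefore understate mitochondrial RNA. In RNA from a sorted population, fewer cells of a type and less RNA per cell cannot be told apart.

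The libraries that stood highest and lowest in these shares also differed in their marker genes. The mean log2(FPKM + 1) of 20 mammary epithelial markers was 5.62, 4.21 and 3.71 in libraries labelled KO and 6.20, 7.12 and 4.08 in those labelled WT. All 20 markers were lower in the libraries labelled KO by sign, with a median log2 difference of -1.31, with no gene called. For 16 macrophage markers the means were 8.53, 8.68 and 8.87 in libraries labelled KO and 8.19, 6.97 and 8.70 in those labelled WT, with 15 of 16 higher by sign. For 10 fibroblast and pericyte markers the means were 3.48, 3.23 and 2.34 in libraries labelled KO, all below the 4.47, 5.92 and 3.76 in those labelled WT. All 7 endothelial markers and all 4 neutrophil markers past the filter were lower as well by sign, with medians of -1.21 and -1.11, and none was called. WT replicate 2 was the highest of the 6 libraries for 57 of the 92 members (all genes 54.1%) and WT replicate 3 the lowest for 55 (all genes 27.4%).

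**Figure D2:**
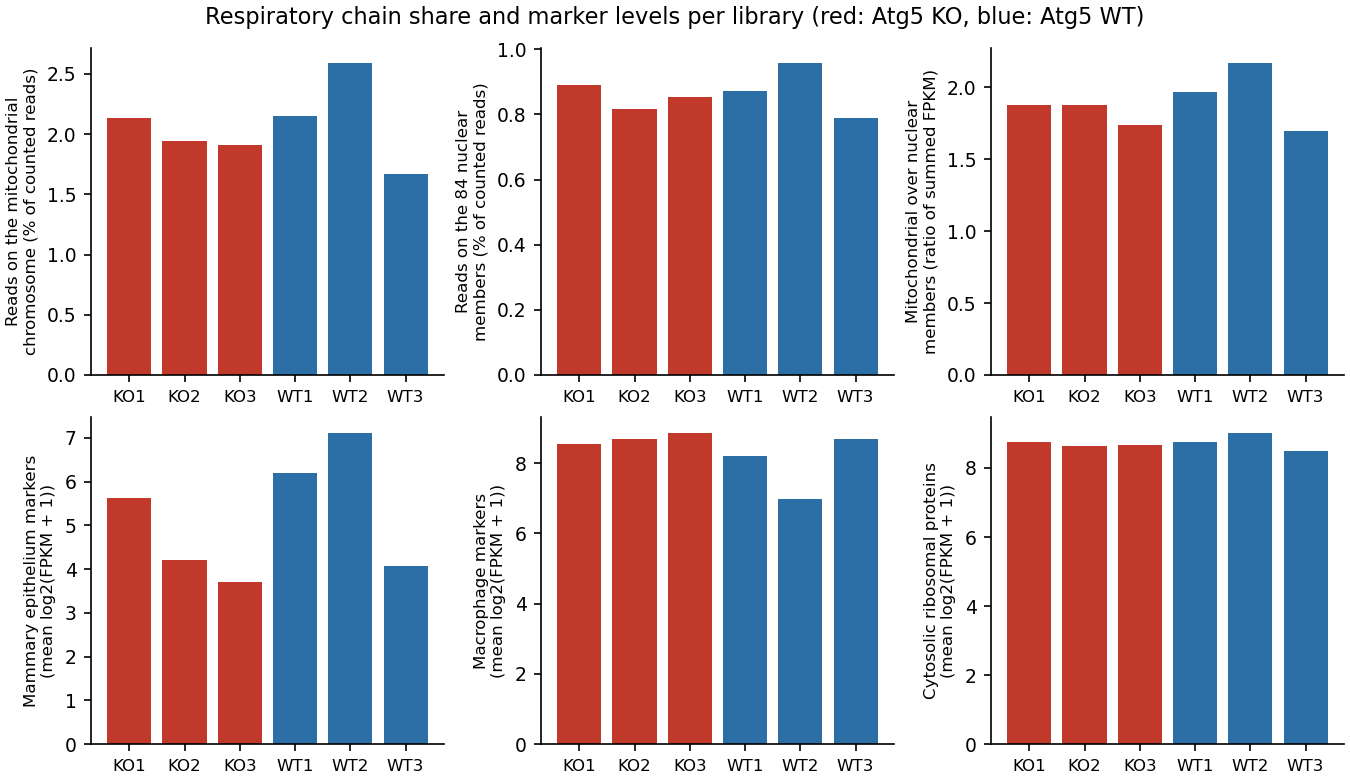
Per-library shares of reads on the mitochondrial chromosome and on the 84 nuclear members (percent of counted reads), their ratio of summed FPKM, and the mean log2(FPKM + 1) of 3 marker or control lists, with libraries labelled Atg5 KO in red and Atg5 WT in blue. WT replicate 2 has the tallest bar in each panel except that of the macrophage markers, where it has the shortest. The mitochondrial share and ratio hold few reads of the genes from mt-Co2 to mt-Nd4l, whose levels are uncertain.

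The deposited levels of the mitochondrial genes fell into separate ranges. Between 724 and 6288 FPKM, as the mean of 6 libraries, stood mt-Nd1, mt-Nd2, mt-Nd4, mt-Nd5 and mt-Nd6 of complex I, mt-Cytb of complex III and mt-Co1, the catalytic subunit of complex IV. Between 5.16 and 36.1 FPKM stood mt-Co2 and mt-Co3, the other core subunits of complex IV, mt-Atp6, the proton channel subunit of ATP synthase, and mt-Nd3 and mt-Nd4l of complex I. mt-Atp8 was at 0.295 FPKM. The low genes lie side by side on the mitochondrial chromosome, from mt-Co2 to mt-Nd4l (chrM:7013-10173, mm10), between mt-Co1 and mt-Nd4.

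This stretch also exists in the nuclear genome. Words of 50 bases were taken from the protein-coding GENCODE M21 transcripts of each member and looked up in transcripts of genes at other positions. For mt-Co2, mt-Co3, mt-Atp6, mt-Nd4l and mt-Nd3, 98.0% to 100% of the words were found elsewhere, for mt-Nd4 62.2% and for mt-Co1 51.1%, and for the remaining mitochondrial genes under 9%. Among the matching genes, 7 form a block on the minus strand of chromosome 1 (chr1:24611535-24616197), which the deposited table lists as RP23-8J15.1, RP23-8J15.2, RP23-8J15.3, RP23-8J15.4, RP23-8J15.5, Gm10222 and RP23-8J15.7, in the order of the mitochondrial genes from mt-Co1 to mt-Nd4. For mt-Co1, whose words matched 3 other genes, 28.7% of the words were shared with the copy in this block. The copies of mt-Co2, mt-Atp6, mt-Co3, mt-Nd3, mt-Nd4l and mt-Nd4 were identical over all aligned bases (681 of 681 for mt-Co2, 294 of 294 for mt-Nd4l). The copy of mt-Co1 aligned over 483 bases and differs at 1 of them (A1066T, the mitochondrial base first, counted from the first base of mt-Co1). Bases of this copy outside the aligned part were not compared. mt-Atp8 has no annotated copy. It starts after the end of mt-Co2 and its last bases overlap mt-Atp6 on the same strand (chrM:7766-7969 for mt-Atp8, chrM:7927-8607 for mt-Atp6). The genes mt-Co2 and mt-Atp6 are 230 bases apart on the mitochondrial chromosome, and their copies on chromosome 1 are 233 bases apart.

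The following stretches of 60 bases show how little separates a read of the mitochondrial gene from one of its chromosome 1 copy. The first pair holds the first bases of mt-Co2 (chrM:7013-7072, plus strand) and of its copy RP23-8J15.2 (chr1:24615506-24615565, minus strand). The next holds the difference in the aligned part of mt-Co1 (chrM:6390-6449, plus strand) and RP23-8J15.1 (chr1:24616129-24616188, minus strand), with the differing base in capitals. The last holds the first bases of mt-Nd4l (chrM:9877-9936, plus strand) and Gm10222 (chr1:24612641-24612700, minus strand). All are from GENCODE M21 transcripts of GRCm38.
mt-Co2: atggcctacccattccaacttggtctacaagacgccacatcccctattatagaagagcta
RP23-8J15.2: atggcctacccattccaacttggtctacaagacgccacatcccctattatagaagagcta
mt-Co1: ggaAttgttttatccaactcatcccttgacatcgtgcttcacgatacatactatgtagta
RP23-8J15.1: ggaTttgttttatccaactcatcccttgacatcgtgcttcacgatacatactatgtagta
mt-Nd4l: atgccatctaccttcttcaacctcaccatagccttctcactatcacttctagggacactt
Gm10222: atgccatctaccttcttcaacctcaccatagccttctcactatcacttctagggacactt

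The deposited values of the copies lay between 2.30 and 51.0 FPKM, nearer to those of the low mitochondrial genes than to those of the high ones. RP23-8J15.2 had 37.7, 40.0 and 38.7 FPKM in libraries labelled KO and 42.0, 46.3 and 31.4 FPKM in those labelled WT, beside 37.6, 34.3 and 35.7 FPKM (labelled KO) and 36.3, 42.1 and 30.6 FPKM (labelled WT) for mt-Co2 itself. RP23-8J15.3, the copy of mt-Atp6, had 37.8, 35.2 and 34.4 FPKM in libraries labelled KO and 40.6, 51.0 and 32.1 FPKM in those labelled WT, more than mt-Atp6. Gm10222 had 4.34, 2.30 and 3.76 FPKM in libraries labelled KO and 6.60, 5.64 and 5.44 FPKM in those labelled WT. RP23-8J15.5, the copy of mt-Nd3, had 22.9, 15.2 and 16.5 FPKM in libraries labelled KO and 19.6, 20.9 and 24.1 FPKM in those labelled WT, above every value of mt-Nd3. RP23-8J15.4 had 27.6, 25.1 and 26.4 FPKM in libraries labelled KO and 24.5, 33.3 and 20.7 FPKM in those labelled WT, close to mt-Co3. The copies of mt-Co1 and mt-Nd4, RP23-8J15.1 and RP23-8J15.7, lay between 25.7 and 37.7 FPKM and between 4.87 and 9.52 FPKM over the 6 libraries, far below the mitochondrial genes. The sources used here do not say how reads with more than 1 position were treated, and the part of this in the low values was not tested. Levels of these 5 genes and of mt-Atp8 are therefore uncertain as levels of mitochondrial RNA, and those of mt-Co1 and mt-Nd4 in part.

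**Figure D3:**
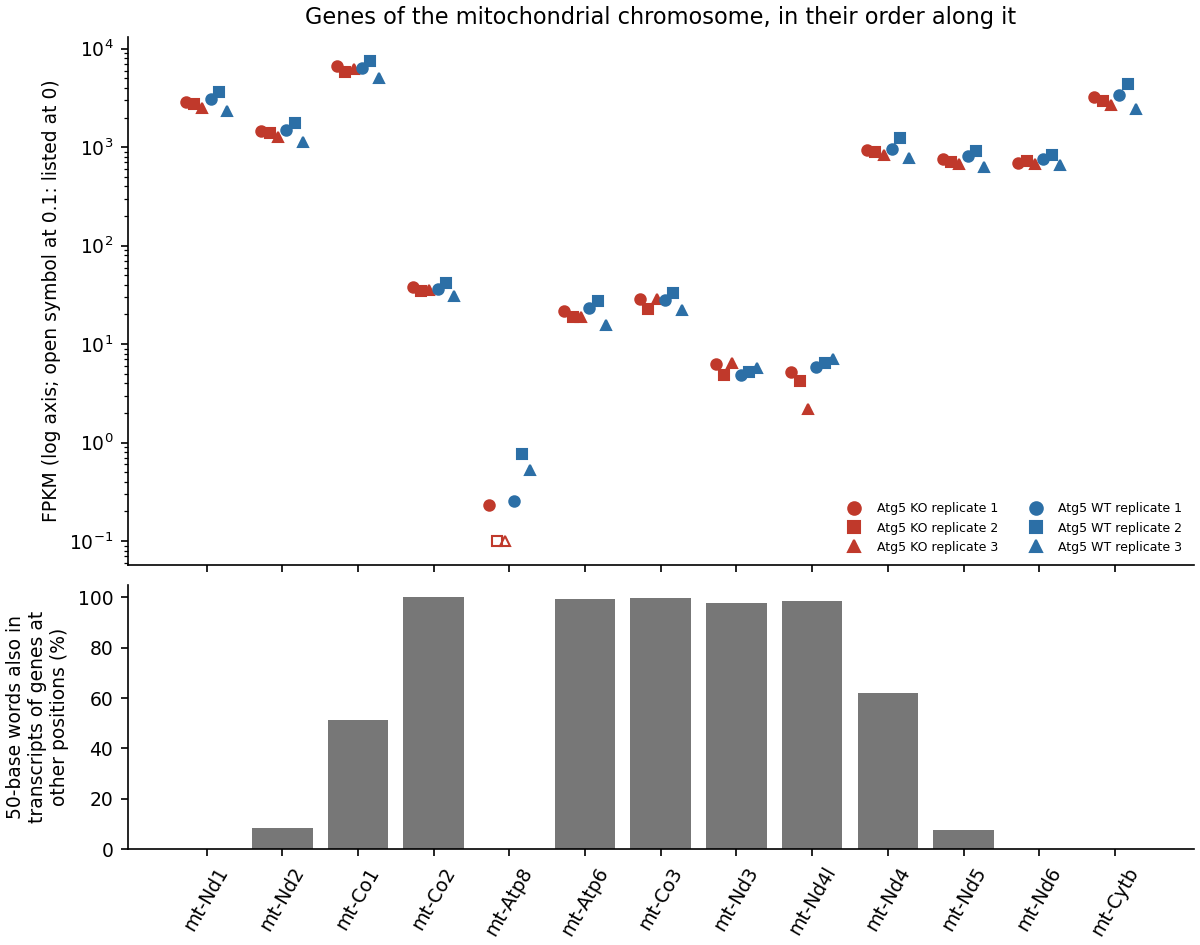
Upper panel: FPKM (log axis) of the 13 mitochondrial genes in their order along the chromosome, with 1 symbol per library, labelled Atg5 KO in red and labelled Atg5 WT in blue. Lower panel: percent of 50-base words of each gene also found in transcripts of genes at other positions, which is 98.0% or more for the 5 genes between 5.16 and 36.1 FPKM and under 9% for mt-Nd1, mt-Nd2, mt-Nd5, mt-Nd6, mt-Cytb and mt-Atp8.

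Among the mitochondrial genes with few shared words, mt-Cytb, the cytochrome b of complex III, had 3199, 2928 and 2657 FPKM in the libraries labelled KO, against 3416, 4374 and 2469 FPKM in those labelled WT. The libraries labelled KO lay between WT replicate 3 and WT replicate 1, and the log2 difference was -0.19 (SE 0.263, adjusted p = 0.718, limma-trend). mt-Nd1, which forms part of the ubiquinone channel of complex I, had 2903, 2752 and 2481 FPKM in libraries labelled KO and 3087, 3668 and 2315 FPKM in those labelled WT, with the same order of libraries. Its difference was -0.13 (95% interval -0.70 to 0.43). mt-Nd5, a proton pumping subunit of complex I, had 767, 711 and 674 FPKM in libraries labelled KO and 805, 916 and 634 FPKM in those labelled WT, a difference of -0.12 (95% interval -0.55 to 0.31). mt-Nd2, a related pumping subunit, differed by -0.08 (adjusted p = 0.855, limma-trend). mt-Nd4, the third of these pumping subunits, which shares most of its words with chromosome 1, differed by -0.13 (adjusted p = 0.737, limma-trend).

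mt-Nd6 is the member on the other strand of the mitochondrial chromosome, and the strand setting of the counting is not given. It had 686, 731 and 679 FPKM in libraries labelled KO and 762, 829 and 659 FPKM in those labelled WT, with a difference of -0.10 (95% interval -0.44 to 0.24). mt-Co1 had 6667, 5843 and 6196 FPKM in libraries labelled KO and 6389, 7546 and 5088 FPKM in those labelled WT, a difference of -0.01 (95% interval -0.62 to 0.60). The 3 labelled KO values of mt-Co1 all lie inside the range of the 3 labelled WT values.

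mt-Nd4l, a small membrane subunit of complex I, was the mitochondrial gene with the smallest p. Its FPKM was 5.25, 4.22 and 2.20 in libraries labelled KO, against 5.83, 6.45 and 6.996 in those labelled WT, with a log2 difference of -0.65 (SE 0.263, unadjusted p = 0.0484, adjusted p = 0.492, limma-trend). The groups do not overlap, but the values rest on 33, 26 and 13 reads in libraries labelled KO and 33, 37 and 39 reads in those labelled WT, and 98.8% of its words are shared with chromosome 1. mt-Nd3 differed the other way, with 6.24, 4.85 and 6.50 FPKM in libraries labelled KO and 4.82, 5.21 and 5.66 FPKM in those labelled WT (log2 difference 0.13, adjusted p = 0.638, limma-trend). mt-Co3 and mt-Atp6 differed by -0.04 and -0.12. mt-Atp8 had 1, 0 and 0 reads in libraries labelled KO and 1, 3 and 2 reads in those labelled WT, too few for a comparison.

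By sign, 1 of the 12 mitochondrial members tested was higher and 11 were lower in the libraries labelled KO, a split that turned to 10 higher and 2 lower with median-ratio scaling and was 2 and 10 with quantile normalization. Their median difference was -0.11, against -0.09 for all genes, and WT replicate 2 was the highest library for 10 of the 12. Without WT replicate 2 the split was also 10 higher and 2 lower and the median 0.04, and with the epithelial marker mean as a covariate the median was 0.10. With median-ratio scaling the median of all genes moved to 0.03, and 54.0% of genes were then higher, against 37.2% as deposited. No mitochondrial member was called under any of these settings.

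The nuclear subunits of complex I covered a range of 5.27 to 157 FPKM among the 34 past the filter. By sign, 20 were higher and 14 lower in the libraries labelled KO, with a median difference of 0.02 (28 and 6 with median-ratio scaling, 24 and 10 with quantile normalization). The 2 highest were Ndufa1, a small membrane subunit needed for assembly, and Ndufa2, a small subunit of the matrix arm. Ndufa1 (chromosome X, 37187588 to 37191163) had 167, 162 and 184 FPKM in libraries labelled KO, against 151, 133 and 146 FPKM in those labelled WT. Each labelled KO value exceeded each labelled WT value, by a log2 difference of 0.25 (SE 0.104, adjusted p = 0.492, limma-trend). Ndufa2 had 157, 160 and 152 FPKM in libraries labelled KO and 149, 147 and 144 FPKM in those labelled WT, also without overlap, at a difference of 0.09 (95% interval -0.12 to 0.30).

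Ndufc1, an accessory subunit of the membrane arm, had 24.3, 24.4 and 23.2 FPKM in libraries labelled KO and 21.5, 20.4 and 22.7 FPKM in those labelled WT, a difference of 0.15 (adjusted p = 0.527, limma-trend). In the other direction, Ndufb6, an accessory subunit of the membrane arm, had 45.4, 39.4 and 43.3 FPKM in libraries labelled KO and 55.9, 55.3 and 43.1 FPKM in those labelled WT, a difference of -0.26 (adjusted p = 0.507, limma-trend). WT replicate 3 lies with the labelled KO libraries here. Of Ndufb6 words, 31.6% belong also to a gene that overlaps it. Ndufa12, an accessory subunit of the matrix arm, differed by -0.25 (adjusted p = 0.517, limma-trend).

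The subunits that carry the electron path of complex I showed small differences. Ndufs1, the iron-sulfur subunit, averaged 17.5 ± 0.573 FPKM in libraries labelled KO and 17.9 ± 1.49 FPKM in those labelled WT (SD, n = 3 each). Ndufv1, which binds FMN and accepts electrons from NADH, averaged 39.3 ± 2.77 FPKM in libraries labelled KO and 41.1 ± 6.06 FPKM in those labelled WT. Ndufs7 and Ndufs8, which hold the last iron-sulfur clusters before ubiquinone, averaged 53.2 ± 2.45 and 79.4 ± 5.08 FPKM in libraries labelled KO, against 49.2 ± 5.41 and 73.4 ± 8.82 FPKM in those labelled WT, with differences of 0.12 each. In these 4 the difference of the means was smaller than the larger of the 2 SDs.

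Ndufb2 fell under the filter, with 0.821, 0.397 and 0.586 FPKM in libraries labelled KO and 0.996, 1.75 and 0.378 FPKM in those labelled WT, on 76, 36 and 51 reads against 83, 148 and 31. Its gene model in the table is 4371 bases long. FPKM divides by the length of the model, and for 4 members the model was much longer than the longest protein-coding GENCODE transcript. The model was 7.12 times as long for Ndufb7, 4.12 times for Cox6c, 4.03 times for Atp5e and 2.90 times for Ndufa11. Their levels beside other subunits can be understated by that, while the difference between groups is not touched.

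Complex II is the one complex with no mitochondrial gene, and it also works in the tricarboxylic acid cycle as succinate dehydrogenase. All 4 subunits were higher in the libraries labelled KO by sign, with a median of 0.09 and none called. Sdhb, the iron-sulfur subunit (chromosome 4, 140961203 to 140979193), had 93.0, 94.0 and 104 FPKM in libraries labelled KO, against 77.4, 68.8 and 88.1 FPKM in those labelled WT. The groups did not overlap and the log2 difference was 0.31 (SE 0.122, unadjusted p = 0.0430, adjusted p = 0.492, limma-trend). WT replicate 3 was the library labelled WT closest to those labelled KO, and without it the difference was 0.40 with an adjusted p of 0.129 (limma-trend). With the epithelial marker mean as a covariate it was 0.19.

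Sdhd, a membrane anchor, had 79.0, 77.9 and 85.8 FPKM in libraries labelled KO and 74.9, 74.1 and 72.6 FPKM in those labelled WT, a difference of 0.13 without overlap (adjusted p = 0.540, limma-trend). Sdha, the flavoprotein that oxidises succinate, had 74.5, 70.7 and 74.8 FPKM in libraries labelled KO and 71.8, 77.3 and 70.2 FPKM in those labelled WT, a difference of 0.01 (95% interval -0.21 to 0.22). Sdhc, the second anchor, averaged 30.5 ± 1.60 FPKM in libraries labelled KO and 29.2 ± 0.467 FPKM in those labelled WT. All 4 signs were the same under median-ratio scaling and quantile normalization, and Sdha, at 0.01, turned negative when any of 4 single libraries was left out.

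The 8 nuclear members of complex III had between 57.6 and 227 FPKM and a median difference of -0.02, with 3 higher and 5 lower by sign (7 and 1 with median-ratio scaling). Uqcr11 and Uqcr10, 2 of its smallest subunits, were the highest. Uqcr11 had 252, 199 and 220 FPKM in libraries labelled KO and 244, 266 and 182 FPKM in those labelled WT, which overlap widely. Uqcrq, a small subunit beside cytochrome b, had 68.4, 68.0 and 73.5 FPKM in libraries labelled KO and 63.8, 55.9 and 66.4 FPKM in those labelled WT, a difference of 0.17 without overlap (adjusted p = 0.526, limma-trend). Uqcrc2, a core protein on the matrix side, had 56.6, 48.9 and 52.9 FPKM in libraries labelled KO and 60.9, 71.3 and 54.7 FPKM in those labelled WT, a difference of -0.23 (adjusted p = 0.518, limma-trend).

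Of the other members of complex III, none was separated between the groups. Uqcrc1, the core protein that pairs with Uqcrc2, averaged 81.6 ± 0.906 FPKM in libraries labelled KO and 82.7 ± 4.92 FPKM in those labelled WT (SD, n = 3 each). Uqcrfs1, the Rieske iron-sulfur protein, had 75.0, 58.8 and 64.0 FPKM in libraries labelled KO and 69.4, 95.4 and 53.1 FPKM in those labelled WT, where WT replicates 2 and 3 enclose all others. Uqcrb and Uqcrh differed by -0.10 and 0.10. Cyc1, the cytochrome c1 that the prefixes miss, averaged 71.8 ± 3.88 FPKM in libraries labelled KO and 75.7 ± 7.92 FPKM in those labelled WT.

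The nuclear members of complex IV were the most abundant of the nuclear groups at the top end, led by Cox6a1 at 498 FPKM, Cox8a at 413 FPKM and Cox6b1 at 387 FPKM over the 6 libraries. Of the 17 past the filter, 11 were higher and 6 lower by sign, with a median difference of 0.05. Cox4i1, through which ATP regulates the enzyme, had 300, 284 and 293 FPKM in libraries labelled KO and 291, 314 and 272 FPKM in those labelled WT, a difference of 0.00 (95% interval -0.25 to 0.26). Cox5a, a peripheral subunit on the matrix side, had 80.8, 86.8 and 96.2 FPKM in libraries labelled KO and 79.6, 59.9 and 77.8 FPKM in those labelled WT, a difference of 0.28 without overlap (adjusted p = 0.506, limma-trend). WT replicate 2 was the lowest library, and without it the difference was 0.15.

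Several subunits of complex IV and V are made from paralogs, some of which replace each other between tissues. In the Cox4, Cox6a, Cox6b and Cox8 pairs the form found in most tissues was far above its tissue-restricted relative. Cox4i1 stood at 293 FPKM and Cox4i2, the form of lung and hypoxic cells, at 1.16 FPKM over the 6 libraries. Cox6a1 stood at 498 FPKM and Cox6a2, the heart and muscle form, at 1.13 FPKM. Cox8a stood at 413 FPKM and Cox8b, a muscle and brown fat form in mouse, at 4.96 FPKM. Cox6b1 stood at 387 FPKM and Cox6b2, the testis form, at 9.80 FPKM. The Cox7a forms were closer together, with Cox7a2 at 116 FPKM and Cox7a1, the heart and muscle form, at 24.3 FPKM. Cox7b2 and Cox8c, both testis forms, had 2 and 1 reads in KO replicate 1 and none in the other libraries, where a count of 0 allows up to 3 reads per library at 95% confidence, for counting error only.

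Among the low paralogs, the largest differences of all members were found. Cox7a1 had 28.3, 18.7 and 10.5 FPKM in libraries labelled KO, against 31.0, 35.7 and 21.8 FPKM in those labelled WT (log2 difference -0.67, SE 0.372, adjusted p = 0.515, limma-trend). Cox8b had 6.65, 2.00 and 1.39 FPKM in libraries labelled KO and 5.94, 11.3 and 2.50 FPKM in those labelled WT (difference -0.82, SE 0.615, adjusted p = 0.556, limma-trend). These Cox8b values rest on 51, 15 and 10 reads in libraries labelled KO and 41, 79 and 17 reads in those labelled WT. In both Cox7a1 and Cox8b, KO replicate 1 overlaps the libraries labelled WT, and the highest library is WT replicate 2. KO replicate 1 was also the library labelled KO with the most epithelial marker RNA, and with the mean of those markers as a covariate the differences were -0.23 for Cox7a1 and 0.04 for Cox8b. The part of other cell types in these differences was not tested.

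Cox6a2 lay the other way, with 1.36, 1.25 and 1.76 FPKM in libraries labelled KO and 1.04, 0.236 and 1.13 FPKM in those labelled WT, on 19, 17 and 23 reads against 13, 3 and 14 (difference 0.48, adjusted p = 0.512, limma-trend). Ndufa4l2, the paralog of Ndufa4 that low oxygen induces, fell under the filter. It had 7, 7 and 0 reads in libraries labelled KO, against 18, 37 and 14 reads in those labelled WT, or 0.344, 0.352 and 0 FPKM against 0.983, 2.00 and 0.777 FPKM. The groups did not overlap for Ndufa4l2, with lower values in the libraries labelled KO, as for 9.41% of all genes tested. The same held for 9 of the 10 fibroblast and pericyte markers, 5 of the 7 endothelial markers and 0 of the 20 mammary epithelial markers. The part of other cell types in the values of Ndufa4l2 was not tested. Ndufa4 itself had 254, 232 and 223 FPKM in libraries labelled KO and 278, 336 and 215 FPKM in those labelled WT (difference -0.20, adjusted p = 0.594, limma-trend).

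**Figure D4:**
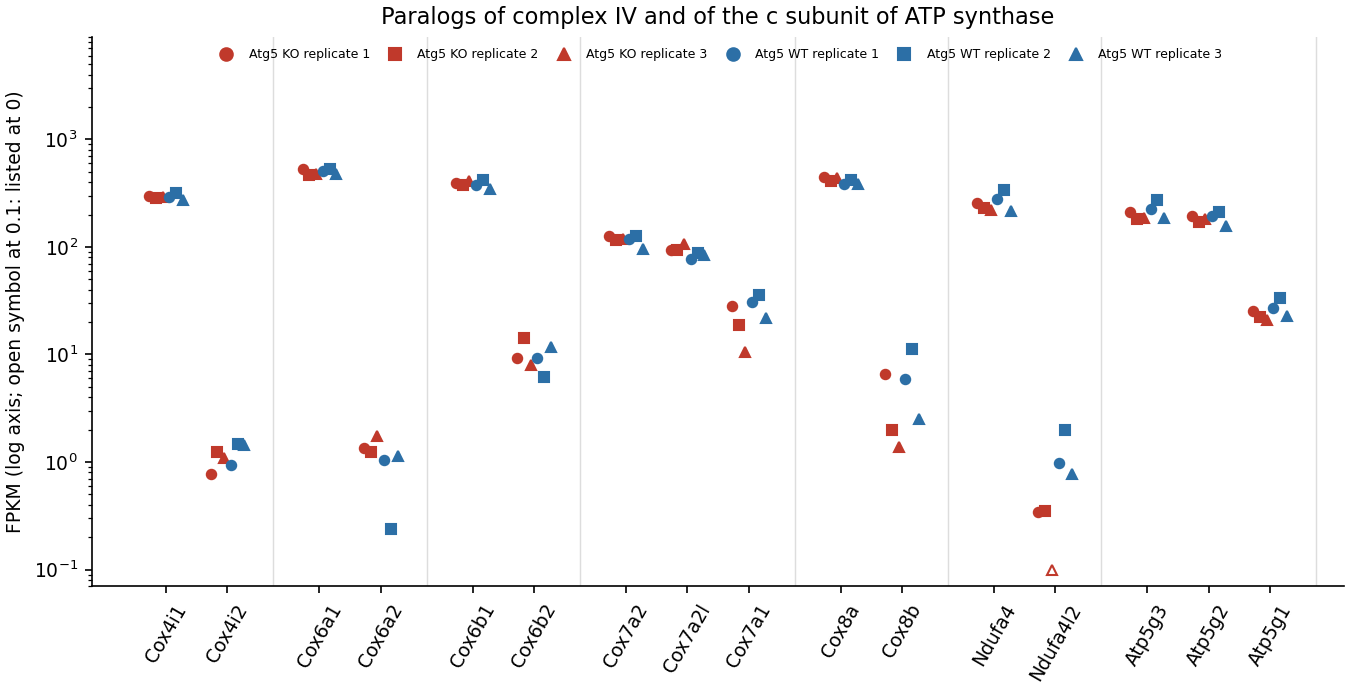
FPKM (log axis) of the paralog sets of complex IV and of the c subunit of ATP synthase, 1 symbol per library, labelled Atg5 KO in red and labelled Atg5 WT in blue. Cox4i1, Cox6a1, Cox6b1 and Cox8a lie far above Cox4i2, Cox6a2, Cox6b2 and Cox8b. Atp5g3 and Atp5g2 lie at similar FPKM above Atp5g1, whose gene model of 4715 bases is longer than those of Atp5g3 (862) and Atp5g2 (753).

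ATP synthase had 17 nuclear members, from Atp5b at 424 FPKM to Atp5s at 2.72 FPKM, with a median difference of -0.08. By sign, 5 were higher and 12 lower in the libraries labelled KO, and 12 higher and 5 lower with median-ratio scaling. Atp5b, the catalytic beta subunit (chromosome 10, 128083273 to 128090391), had 418, 376 and 367 FPKM in libraries labelled KO and 458, 513 and 413 FPKM in those labelled WT. Its groups overlap in KO replicate 1 and WT replicate 3, and the difference was -0.25 (SE 0.131, adjusted p = 0.509, limma-trend). Atp5a1, the alpha subunit that alternates with beta in the catalytic ring, averaged 211 ± 12.2 FPKM in libraries labelled KO and 237 ± 31.2 FPKM in those labelled WT (SD, n = 3 each).

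Atp5e, the epsilon subunit of the central stalk (chromosome 2, 174461072 to 174464105), had 118, 119 and 123 FPKM in libraries labelled KO, against 101, 95.6 and 109 FPKM in those labelled WT. Each labelled KO value lay above each labelled WT value, with a difference of 0.24 (SE 0.0927, unadjusted p = 0.0448, adjusted p = 0.492, limma-trend). Atp5l, subunit g of the membrane part, had 257, 267 and 284 FPKM in libraries labelled KO and 238, 249 and 218 FPKM in those labelled WT, a difference of 0.20 without overlap (adjusted p = 0.510, limma-trend). Of Atp5l words, 68.5% are shared with genes at other positions, the most of any nuclear member.

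The c subunit, whose ring turns with the flow of protons, is made from 3 genes that encode the same mature protein with different import signals. Atp5g3 had 210, 184 and 185 FPKM in libraries labelled KO and 227, 273 and 185 FPKM in those labelled WT. Atp5g2 had 193, 170 and 183 FPKM in libraries labelled KO and 196, 209 and 156 FPKM in those labelled WT. Atp5g3 was the higher of this pair in all 6 libraries, and the ranges of both over the libraries overlap. Atp5g1 was lower in FPKM, at 25.3, 22.2 and 21.1 FPKM in libraries labelled KO and 26.8, 33.6 and 23.0 FPKM in those labelled WT. Its gene model has 4715 bases, against 862 for Atp5g3 and 753 for Atp5g2, and FPKM divides by this length. In reads, Atp5g1 had 2524, 2174 and 1983 (labelled KO) and 2407, 3058 and 2032 (labelled WT). Atp5g2 had 3073, 2660 and 2750 reads (labelled KO) and 2811, 3043 and 2205 (labelled WT). The differences between the groups were -0.23, -0.03 and -0.26, with adjusted p of 0.549, 0.928 and 0.533 (limma-trend).

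Nuclear subunits also have copies, mostly processed pseudogenes made from their mRNA, and 3 of these copies held many reads. They were singled out after their values were seen. Ndufs5, an accessory subunit of complex I, was listed at 5.07, 5.89 and 5.25 FPKM in libraries labelled KO and 5.63, 5.26 and 4.54 FPKM in those labelled WT. BC002163 on chromosome 16 (42955631 to 42955949), listed as a pseudogene, shares 21.7% of the 50-base words of Ndufs5 and had 109, 101 and 116 FPKM in libraries labelled KO and 120, 111 and 101 FPKM in those labelled WT. Of the reads given to the pair, between 88.9% and 91.2% were placed on the copy, in all 6 libraries.

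Gm15920 on chromosome 5 shares 26.2% of the words of Ndufa12 and averaged 35.9 ± 0.855 FPKM in libraries labelled KO and 34.9 ± 0.980 FPKM in those labelled WT, while Ndufa12 itself averaged 31.5 ± 2.19 FPKM in libraries labelled KO and 37.9 ± 6.21 FPKM in those labelled WT (SD, n = 3 each). Gm6969 on chromosome 12 shares 17.8% of the words of Cox7a2l. It had 186, 164 and 194 FPKM in libraries labelled KO, against 146, 134 and 125 FPKM in those labelled WT, a difference of 0.42 without overlap (SE 0.116, adjusted p = 0.492, limma-trend). Cox7a2l itself had 93.6, 93.3 and 106 FPKM in libraries labelled KO and 77.5, 86.9 and 83.9 FPKM in those labelled WT, a difference of 0.23 in the same direction (SE 0.0998, adjusted p = 0.492, limma-trend). The pair shares sequence, so the values of gene and copy are not independent.

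**Figure D5:**
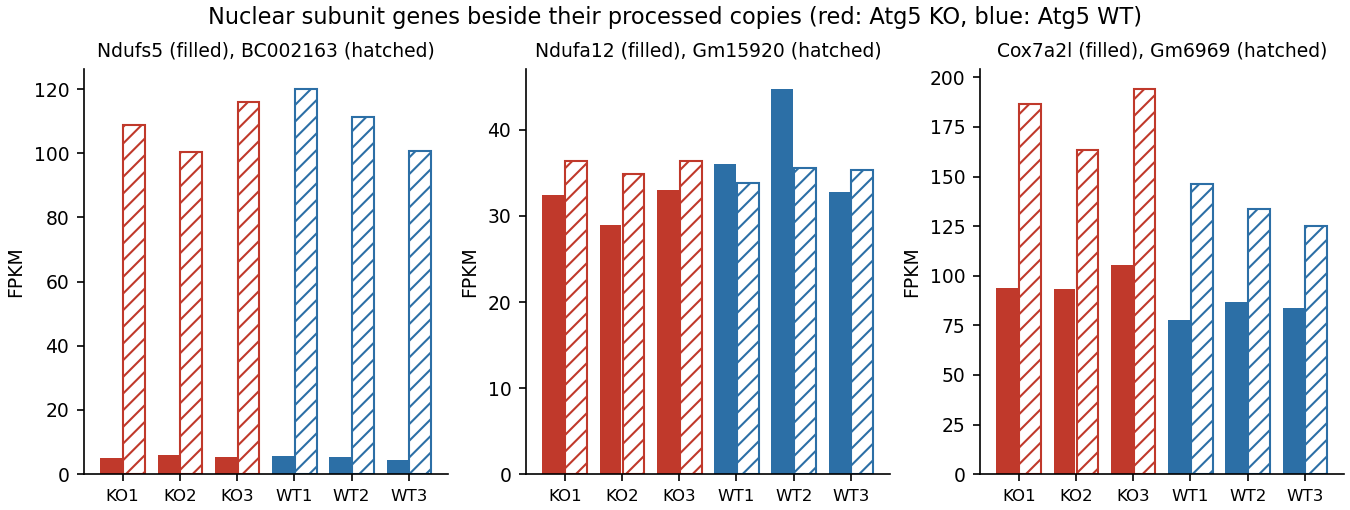
FPKM per library of Ndufs5, Ndufa12 and Cox7a2l (filled bars) beside the copies BC002163, Gm15920 and Gm6969 (hatched bars), with libraries labelled Atg5 KO in red and Atg5 WT in blue. BC002163 is far above Ndufs5 in every library, and Gm6969 is higher in each library labelled KO than in any labelled WT.

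Nuclear respiratory genes are known for promoters that bind NRF1, the ETS family factor GABP and YY1. In RefSeq promoters of build GRCm38.p6, which run from 250 bases before to 50 after the start, 66 of the 84 nuclear members had an entry, with 71 promoters. The NRF1 letters GCGCATGCGC, searched on both strands, were in 5 of these promoters, or 7.04%, against 0.971% of all 32851. The ETS letters CCGGAAG were in 16, or 22.5% against 8.86%, and the YY1 letters ATGGCGG, which can also hold a start codon, in 11, or 15.5% against 4.05%. No match of one motif overlapped a match of another. Member promoters held a median of 19 CG dinucleotides, against 7 for all promoters, and these motifs hold CG themselves.

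The 3 promoters below show each motif in capitals. Cox6a1 (chr5:115348909-115349208, minus strand), the most abundant nuclear member, holds an NRF1 match at -162 and, on the other strand, an ETS match at -16. Positions are those of the first base of the match, counted from 0 at the RefSeq start of the promoter entry. That start can differ from the gene start in the deposited data. Sdhb (chr4:140961021-140961320, plus strand), the member with the smallest p, holds an ETS match at 6, and Ndufs7 (chr10:80249199-80249498, plus strand) a YY1 match at 27.
Cox6a1: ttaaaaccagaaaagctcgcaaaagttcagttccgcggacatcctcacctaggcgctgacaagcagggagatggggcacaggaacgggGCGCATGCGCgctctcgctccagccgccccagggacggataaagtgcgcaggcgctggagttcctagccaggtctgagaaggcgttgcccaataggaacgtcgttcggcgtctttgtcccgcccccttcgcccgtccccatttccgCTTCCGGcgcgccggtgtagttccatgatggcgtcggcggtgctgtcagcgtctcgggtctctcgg
Sdhb: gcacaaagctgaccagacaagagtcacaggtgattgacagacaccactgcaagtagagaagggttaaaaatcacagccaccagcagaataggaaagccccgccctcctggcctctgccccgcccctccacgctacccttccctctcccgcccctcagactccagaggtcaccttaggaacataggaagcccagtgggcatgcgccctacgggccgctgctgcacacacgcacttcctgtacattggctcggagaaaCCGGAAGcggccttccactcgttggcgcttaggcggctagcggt
Ndufs7: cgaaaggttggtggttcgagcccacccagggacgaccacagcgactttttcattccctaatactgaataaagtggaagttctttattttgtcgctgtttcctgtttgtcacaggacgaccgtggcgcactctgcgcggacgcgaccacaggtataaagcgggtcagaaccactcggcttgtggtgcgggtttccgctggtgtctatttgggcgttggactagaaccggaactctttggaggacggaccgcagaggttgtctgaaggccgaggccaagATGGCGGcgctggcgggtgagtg

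Gabpa, the DNA-binding subunit of GABP, averaged 9.06 ± 0.735 FPKM in libraries labelled KO and 9.88 ± 0.869 FPKM in those labelled WT, and Nrf1 averaged 7.66 ± 0.0444 FPKM in libraries labelled KO and 7.78 ± 0.392 FPKM in those labelled WT (SD, n = 3 each). Neither difference passed the test, and both genes were named outside the rule. A match of letters in a promoter is a description and was set against no measurement of binding.

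The genes that work around the chain were counted in lists. None of the 8 lists held a called gene, and their splits by sign follow the scaling, so each is given as deposited and then with median-ratio scaling. Of 42 assembly factors tested, 24 were higher and 18 lower in the libraries labelled KO by sign, at a median of 0.02, and 35 and 7 after scaling. Coa4, which helps assemble complex IV, had 6.25, 3.92 and 6.61 FPKM in libraries labelled KO and 2.64, 2.76 and 3.71 FPKM in those labelled WT (difference 0.69, SE 0.217, adjusted p = 0.492, limma-trend). Coa5, also of complex IV assembly, had 29.1, 24.7 and 33.1 FPKM in libraries labelled KO and 20.0, 19.4 and 21.4 FPKM in those labelled WT (difference 0.49, adjusted p = 0.492, limma-trend). Both were named for the smallest p of the list, and neither gene's groups overlapped. In this list 6 of 42 genes were separated in either direction, beside 18.6% of all genes tested.

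Of 20 electron carrier and ubiquinone genes, 2 were higher and 18 lower by sign, at a median of -0.11, and 10 and 10 after scaling. Coq3, an enzyme of ubiquinone synthesis, averaged 2.94 ± 0.087 FPKM in libraries labelled KO and 4.07 ± 0.718 FPKM in those labelled WT. Sqrdl, which feeds electrons from sulfide into ubiquinone, averaged 23.2 ± 3.16 FPKM in libraries labelled KO and 16.1 ± 4.90 FPKM in those labelled WT. Of 25 genes for upkeep and transcription of mitochondrial DNA, 8 were higher and 17 lower, at a median of -0.03, and 16 and 9 after scaling. Rnaseh1, which removes RNA from RNA-DNA hybrids, had 11.7, 9.80 and 11.8 FPKM in libraries labelled KO and 8.13, 8.61 and 8.78 FPKM in those labelled WT, and Tk2, the mitochondrial thymidine kinase, averaged 14.8 ± 0.731 FPKM in libraries labelled KO and 11.7 ± 1.25 FPKM in those labelled WT. Tfam, which packages mitochondrial DNA and was named outside the rule, differed by -0.03.

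Of 14 regulators of mitochondrial genes, 1 was higher and 13 lower by sign, at a median of -0.12, and 8 and 6 after scaling. Pprc1, a coactivator of the PGC-1 family, had 9.58, 11.8 and 7.86 FPKM in libraries labelled KO and 14.5, 15.2 and 12.3 FPKM in those labelled WT (difference -0.49, SE 0.167, adjusted p = 0.492, limma-trend). Gabpb1, the partner subunit of GABP, had 5.72, 5.53 and 4.57 FPKM in libraries labelled KO and 7.03, 8.33 and 6.32 FPKM in those labelled WT (difference -0.39, adjusted p = 0.492, limma-trend). Both were named for the smallest p of the list and were separated between the groups without passing the test. In this list 3 of 14 genes were separated in either direction, beside 18.6% of all genes tested. Of 19 tricarboxylic acid cycle genes, 3 were higher and 16 lower, at a median of -0.12, and 11 and 8 after scaling. Idh3a, a subunit of the NAD-dependent isocitrate dehydrogenase, averaged 17.1 ± 0.981 FPKM in libraries labelled KO and 20.8 ± 0.996 FPKM in those labelled WT, and Fh1, fumarase, averaged 21.5 ± 1.01 FPKM in libraries labelled KO and 24.6 ± 0.508 FPKM in those labelled WT.

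The mitochondrial ribosomal proteins, which translate the 13 mitochondrial mRNAs, had 34 of 76 higher and 42 lower, at a median of -0.02, and 60 and 16 after scaling. Mrpl42 averaged 56.1 ± 2.54 FPKM in libraries labelled KO and 47.5 ± 0.427 FPKM in those labelled WT, and Mrps28 averaged 26.0 ± 1.16 FPKM in libraries labelled KO and 32.8 ± 6.49 FPKM in those labelled WT. For comparison, 17 of 77 cytosolic ribosomal protein genes were higher and 60 lower (median -0.07, and 57 and 20 after scaling), with Rps4l and Rpl23a at -0.45 and -0.46. Of 33 constitutive proteasome genes, 12 were higher and 21 lower (median -0.02, and 27 and 6 after scaling), with Psmd3 and Psmd12 at -0.30 and -0.29. The medians of all these lists lie between -0.12 and 0.02, beside -0.09 for all genes, and WT replicate 2 was the highest library for 71 of the 77 cytosolic ribosomal protein genes.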

How the data were processed

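Per the file headers, the authors deposited FPKM values for 35275 genes in 6 columns, 1 per mouse. The submitters' processing notes name STAR, CASAVA and the build mm10 but no versions. The sources used here do not give the annotation, the strand setting or the treatment of reads with several positions. FPKM times the listed gene length was divided by the smallest nonzero product of the library, which was taken as 1 read. This gave whole reads for 100% of values within 0.01 read, and these reads were used for depth and for limma-voom. On log2(FPKM + 1), limma 3.58.1 (R 4.3.3) was fitted to the 12332 genes whose mean FPKM reached 1, with a single term for the group and the mean-variance trend. The two-sided p-values were adjusted over all genes by Benjamini-Hochberg, with a threshold of 0.05, and intervals are at 95%. Differences are on the log2(FPKM + 1) scale, which understates changes of low genes. Each library is 1 mouse, per the labels' titles.

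The members and lists were chosen with earlier results of these data known. Named were all mitochondrial members, the paralog sets, the 2 highest and 2 lowest nuclear members of each complex, those with the 2 smallest p per direction and complex, and the 2 genes of smallest p in each list. The text gives most of these in full and the rest within ranges. Ndufs1, Ndufv1, Ndufs7, Ndufs8, Uqcrc1, Uqcrfs1 and Atp5a1 were described outside this rule. Shared words came from GENCODE M21 transcripts (GRCm38) with Biopython 1.88 under Python 3.11.15, and promoters from RefSeq. Alternatives were pseudocounts of 0.1 and 0.5, other filters, scalings and fits, single libraries left out, the mouse number as a block and epithelial markers as a covariate.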

Additional observations from a re-analysis of the deposited data

How the results depend on the processing

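No respiratory chain gene was called under any of the 16 alternatives, and the smallest adjusted p of a member lay between 0.129 (limma, without WT replicate 3) and 0.908 (without KO replicate 3). Over all genes, 1 was called as deposited (Lyz2), 0 with no filter on low values, with median-ratio scaling and with the mouse number as a replicate block, and between 0 and 16 with a single library left out, the 16 (2 higher, 14 lower) without WT replicate 2. The median of the mitochondrial members was -0.11 as deposited and 0.10 with the epithelial covariate, and that of the nuclear members was 0.01 as deposited and 0.14 with median-ratio scaling. The median of all genes was -0.09 as deposited, 0.03 with median-ratio scaling and 0.02 with the covariate. With quantile normalization it was also 0.03, while the mitochondrial and nuclear members had medians of -0.13 and 0.03. Without WT replicate 3 the median of the mitochondrial members was -0.25, and without WT replicate 2 it was 0.04. Of 812 values of 51 named members under the alternatives, 75, from 28 members, had the opposite sign, and none of these was called.

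The mouse numbers are names in the titles, and the main fit did not pair the samples. Deviations of libraries with the same number from their group means correlated over genes at 0.212, -0.376 and 0.590. Those with different numbers lay between -0.807 and 0.728. The 3 deviations within a group depend on each other, so these values cannot decide whether mice were paired. With the block, 0 members and 0 genes were called.

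Groups of 3 mice limit what can be called. The intervals of single members bound the differences given. mt-Nd4l, mt-Nd3, Cox6a2, Cox4i2, Cox8b and Ndufa4l2 rest on few reads. Genes that share sequence with copies have uncertain levels, and reads of overlapping genes cannot be told apart without the strand setting.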
